A study of Mesocricetus auratus with 6 samples.

Results

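The levels of 10 genes that protect and extend chromosome ends were followed in BHK21 cells, a fibroblast-like line that goes back to the kidney of newborn hamsters. The cells had received either STYK1/NOK or an empty plasmid. The set was chosen by name around 1 measured value, the lower level of Ten1 in the STYK1 libraries. It holds the CST subunits Ten1, Stn1 and Ctc1, the shelterin genes Terf1, Terf2, Terf2ip, Tinf2 and Acd, and the telomerase genes Dkc1 and Tert. Of these 10 genes among the 16078 listed, 9 were found by symbol. Terf2ip was not matched and is not analysed here. A filter on the group means, at least 1 FPKM in STYK1 or in vector libraries, was applied. FPKM stands for fragments scaled by transcript length and by all mapped fragments. It left 11464 genes, among them 8 of the 9. Dkc1 lay just above this limit and Tert below it.

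Telomeres are the repeated ends of linear chromosomes. Shelterin coats the repeats: TERF1 and TERF2 bind double-stranded repeats, TINF2 bridges them, and ACD joins POT1, which binds the single-stranded overhang, to TINF2. TERT is the reverse transcriptase of telomerase and DKC1 the pseudouridine synthase that stabilises its RNA. CST, a trimer of CTC1, STN1 and TEN1, binds single-stranded DNA, limits extension by telomerase and brings DNA polymerase alpha with primase to copy the opposite strand.

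The 3 STYK1 libraries came from cells transfected with STYK1/NOK, a membrane protein with a kinase-like domain. The 3 vector libraries came from cells transfected with pCMV-Myc, an expression plasmid that carries no STYK1/NOK. All 6 were harvested 48 after transfection, with no unit given, from the same line. The labels name neither the species of the STYK1/NOK sequence nor separate cultures, so the p-values refer to spread among libraries that may be technical.

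The hamster Styk1 gene was listed at 2.04, 2.46 and 2.41 FPKM in the STYK1 libraries and at 1.5, 1.80 and 1.89 FPKM in the vector libraries. All its STYK1 values lay above all its vector values, as was so for 13.6% of the genes tested. The log2 difference of 0.28 did not pass the test across all genes (limma-trend, Benjamini-Hochberg adjusted p = 0.470), which no gene passed. These values do not settle whether STYK1/NOK was overexpressed. Between 14119 and 14339 genes were above 0 per library, and the number of reads is unknown. The library vector 1 stood apart, with correlations of 0.963 to 0.976 to the others on log2(FPKM + 1), against 0.988 to 0.993 among the other 5. Of the fibroblast markers, Vim, Fn1, Pdgfra and Pdgfrb were between 37.1 and 4010 FPKM in group means, while Col1a1, Col1a2, Col3a1 and Thy1 were below 1 FPKM. The 6 kidney epithelium markers found were below 1 FPKM in group means, so the labelled tissue is not shown by its epithelial markers. Of the 3 endothelial markers found, Pecam1 and Tek were below 1 FPKM in group means. Cdh5 was at a mean of 7.56 FPKM in STYK1 and 6.83 FPKM in vector libraries.

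Ten1, the gene of the smallest CST subunit, showed the difference for which the set was made. Ten1 (NCBI Gene ID 101824252) was at 4.67, 4.78 and 7.13 FPKM in STYK1 1, 2 and 3, against 10.4, 9.51 and 10.7 FPKM in vector 1, 2 and 3. Every STYK1 library lay below every vector library, and STYK1 3 was the nearest to them. The means were 5.53 ± 1.39 FPKM in STYK1 and 10.2 ± 0.637 FPKM in vector libraries (SD, n = 3 each), and the STYK1 mean was 0.541 times the vector mean. On the log2(FPKM + 1) scale the difference, STYK1 minus vector, was -0.80 ± 0.16 (SE), a scale that understates changes of low genes. It was the 26th lowest of the 11464 differences. Because this difference chose the set, it is a description with no p-value, and its SE does not allow for that choice. Leaving out vector 1 gave -0.79, so the value of Ten1 did not rest on the library that stood apart. Leaving out STYK1 3 gave -0.97, the lowest value among the settings tried. In these bulk samples, fewer cells with the transcript and less transcript per cell cannot be told apart.

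Stn1, the subunit that binds TEN1 and contacts DNA polymerase alpha, did not show a difference of that size. Stn1 (Gene ID 101844063) was at 31.9, 35.1 and 32.1 FPKM in the STYK1 libraries, against 42.2, 35.2 and 33.7 FPKM in the vector libraries. The groups overlapped, and vector 1 alone lay above the other 5 libraries. On the log2 scale it differed by -0.16 ± 0.11 (SE; 95% interval -0.40 to 0.09; limma-trend, adjusted p = 0.514), and by -0.06 without vector 1.

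Ctc1, the large subunit of the trimer, was the lowest of the 3 in FPKM. Ctc1 (Gene ID 101841158) was at 3.84, 3.41 and 3.31 FPKM in the STYK1 libraries, against 3.65, 3.11 and 4.32 FPKM in the vector libraries. The STYK1 values lay within the vector range. On the log2 scale it differed by -0.05 ± 0.14 (SE; 95% interval -0.38 to 0.28; limma-trend, adjusted p = 0.888), and by 0.04 once FPKM sums were made equal. An interval that spans 0 does not show that Stn1 or Ctc1 were at equal levels in both groups. The difference of Ten1 chose the set, so the intervals of Stn1 and Ctc1 are not set against it. Differences between the 3 genes were not tested.

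The composition of the CST transcripts was also described within each library, where the scaling of libraries has no part. The ratio of Ten1 to Stn1 in FPKM was 0.146, 0.136 and 0.222 in STYK1 1, 2 and 3, against 0.247, 0.270 and 0.319 in vector 1, 2 and 3. The ratio was lower in each STYK1 library than in each vector library, with STYK1 3 and vector 1 the closest. The ratio of Ten1 to Ctc1 was 1.22, 1.40 and 2.15 in the STYK1 libraries, against 2.85, 3.06 and 2.49 in the vector libraries, again without overlap. The ratio of Stn1 to Ctc1 overlapped, at 9.43 ± 1.02 in STYK1 and 10.2 ± 2.10 in vector libraries (SD, n = 3 each). Both ratios with Ten1 hold the value that chose the set and are not tested.

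**Figure D1:**
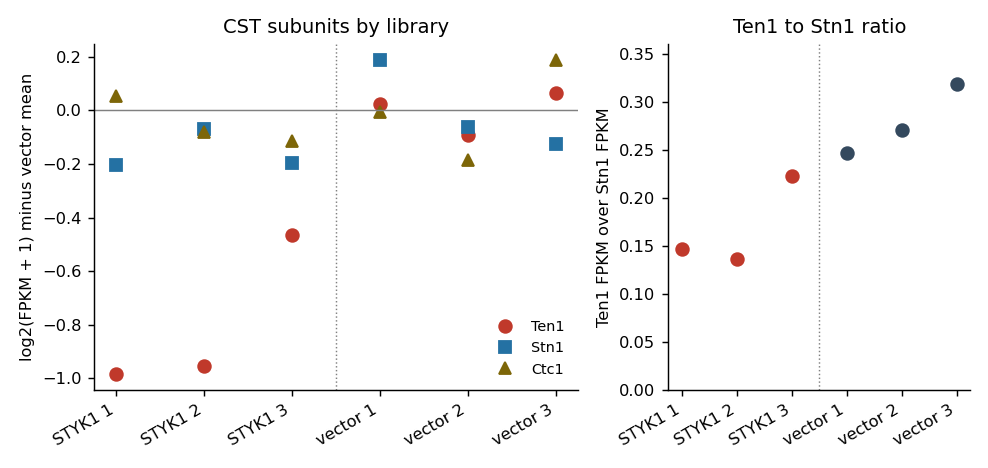
Left, log2(FPKM + 1) of Ten1, Stn1 and Ctc1 in each library minus the gene's mean over the vector libraries; right, Ten1 FPKM divided by Stn1 FPKM in each library. Ten1 lies at -0.98, -0.96 and -0.46 in the STYK1 libraries, below Stn1 and Ctc1 in each, and the ratio is lower in every STYK1 library than in every vector library.

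None of the shelterin genes passed the test, and the differences of Terf1, Terf2 and Acd were smaller without vector 1. Terf2 (Gene ID 101839217), whose product keeps chromosome ends from being joined, was at 53.6, 48.1 and 51.9 FPKM in the STYK1 libraries, against 37.5, 49.4 and 46.5 FPKM in the vector libraries. The groups overlapped, with vector 1 lowest. The log2 difference was 0.21 ± 0.12 (SE, limma-trend, adjusted p = 0.474), and 0.09 without vector 1. With FPKM sums made equal it was 0.32, and all STYK1 libraries then lay above all vector libraries.

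Terf1 (Gene ID 101835220), whose product aids replication through the repeats, was at 22.5, 21.9 and 21.5 FPKM in the STYK1 libraries, against 17.2, 20.4 and 22.4 FPKM in the vector libraries. Vector 1 was again the lowest library and the groups overlapped. The log2 difference was 0.14 ± 0.11 (SE, limma-trend, adjusted p = 0.564), and 0.04 without vector 1.

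Acd, which encodes TPP1, the shelterin subunit that recruits telomerase, was the most abundant of the 9 genes in FPKM. Acd (Gene ID 101844304) was at 53.95, 56.0 and 55.9 FPKM in the STYK1 libraries, against 82.1, 56.2 and 60.9 FPKM in the vector libraries. The groups did not overlap, but STYK1 2 and vector 2 differed by less than the SD of either group, and vector 1 lay far above the rest. The log2 difference was -0.24 ± 0.14 (SE, limma-trend, adjusted p = 0.474). It was -0.08 without vector 1, and the groups overlapped once FPKM sums were made equal.

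Tinf2, the bridging subunit (Gene ID 101838447), was at 4.37, 4.43 and 5.07 FPKM in the STYK1 libraries, against 4.82, 5.23 and 3.92 FPKM in the vector libraries. The values were interleaved, with a log2 difference of -0.0038 ± 0.14 (SE) and a 95% interval of -0.32 to 0.32 (limma-trend, adjusted p = 0.990). The summed FPKM of Terf1, Terf2, Tinf2 and Acd was 134, 130 and 134 in the STYK1 libraries, against 142, 131 and 134 in the vector libraries. The sums overlapped. Vector 1, which held the highest sum, had the lowest Terf1 and Terf2 and the highest Acd. Pot1, which is not among the 10 genes but completes shelterin, was at 10.3, 11.3 and 10.5 FPKM in the STYK1 libraries, against 9.58, 10 and 10.3 FPKM in the vector libraries. Its groups lay side by side without overlapping, and the log2 difference was 0.09 ± 0.10 (SE, limma-trend, adjusted p = 0.651).

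Both telomerase genes were listed below 2 FPKM in every library. Dkc1 (Gene ID 101830575) was at 1.43, 0.36 and 1.52 FPKM in the STYK1 libraries, against 0.27, 0.99 and 1.98 FPKM in the vector libraries. The spread within each group was larger than the difference between the means, 1.10 ± 0.645 FPKM in STYK1 and 1.08 ± 0.859 FPKM in vector libraries (SD, n = 3 each). Its 95% interval, -0.75 to 0.85 on the log2 scale, was the widest among the 8 genes (limma-trend, adjusted p = 0.955). Gar1, counted further on among the genes for telomerase and its assembly, had means of 20.8 FPKM in STYK1 and 23.2 FPKM in vector libraries. Whether the authors' transcript model lowered the Dkc1 values was not tested.

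Tert (Gene ID 101832590) was at 0.41, 0.38 and 0.63 FPKM in the STYK1 libraries, against 0.67, 0.49 and 0.60 FPKM in the vector libraries. The groups overlapped through STYK1 3. Tert did not reach the filter. In the fit with no filter its log2 difference was -0.11 ± 0.10 (SE, limma-trend, adjusted p = 0.673).

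**Figure D2:**
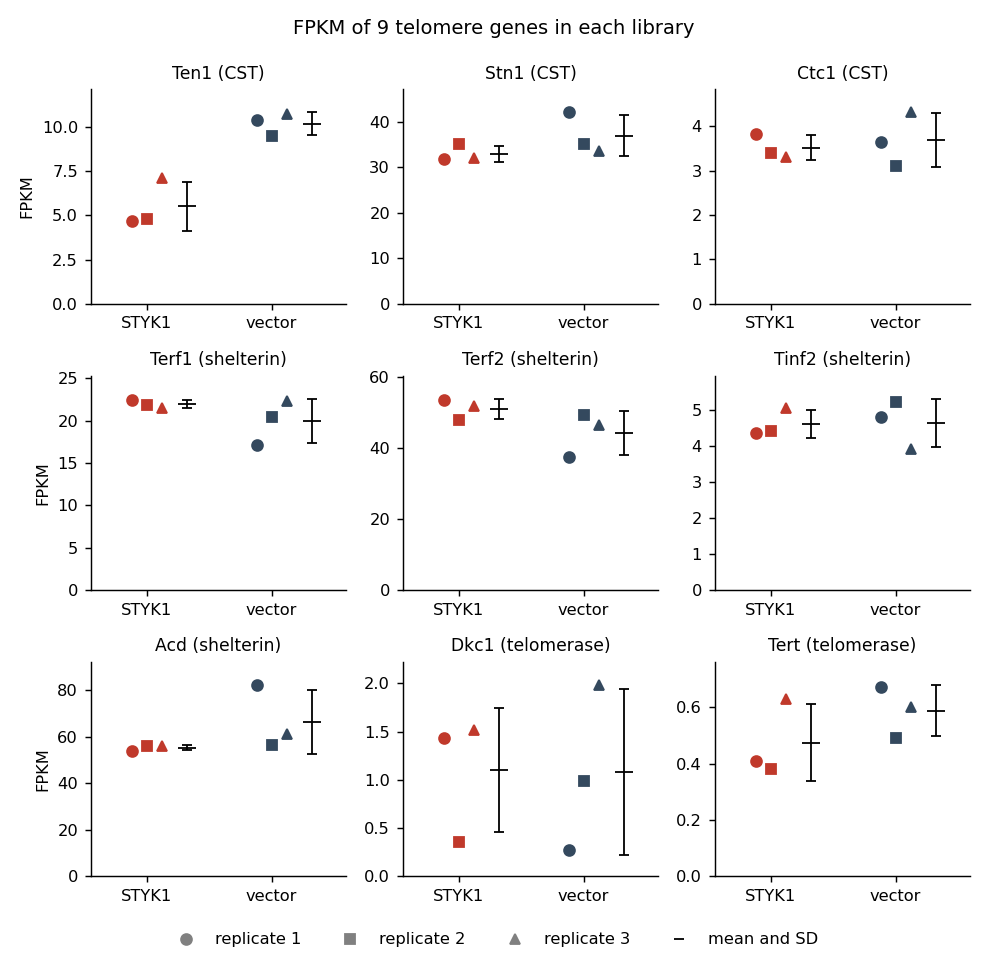
FPKM of the 9 genes found, each on its own axis from 0, with STYK1 libraries left and vector libraries right, 1 symbol per replicate and a bar for the mean and SD (n = 3). All STYK1 values of Ten1 lie below all its vector values, while vector 1 lies outside the range of the other 5 libraries for 6 of the 9 genes, a count not made over all genes.

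The order of the mean levels was the same in STYK1 and in vector libraries: Acd, Terf2, Stn1, Terf1, Ten1, Tinf2, Ctc1, Dkc1 and Tert. In STYK1 libraries the neighbours Ten1 and Tinf2 overlapped, with Ten1 reaching down to 4.67 FPKM and Tinf2 up to 5.07 FPKM, whereas in vector libraries the lowest Ten1 value, 9.51 FPKM, was above the highest Tinf2 value, 5.23 FPKM. Dkc1 and Tert overlapped in both groups. In vector libraries Terf2 also overlapped Stn1, and Tinf2 overlapped Ctc1, which they did not in STYK1 libraries. FPKM is a level per length, so these orders rest on the transcript models the authors used.

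Across all 11464 genes, 0 passed an adjusted p under 0.05 in limma-trend (0% called), and the smallest adjusted p was 0.469. The share with an unadjusted p under 0.05 was 4.95% for genes with a higher and 4.88% for genes with a lower level in STYK1 libraries, 568 and 560 genes. With FPKM sums made equal that split became 1263 higher against 218 lower, and with medians centred it became 402 higher against 762 lower. The sums were 528160 to 542638 in STYK1 and 554681 to 619840 in vector libraries, vector 1 highest. Making them equal therefore raises STYK1 values relative to vector values for every gene. Of the 7 tested genes other than Ten1, 0 passed the adjusted threshold and 0 had an unadjusted p under 0.05. All 3 STYK1 libraries lay above all 3 vector libraries for 13.6% of all genes and for 0 of the 8 telomere genes. They lay below for 9.44% of all genes and for 2 of the 8, Ten1 and Acd, of which Ten1 was chosen for it. The median log2 difference of the 7 partners was -0.0038, against 0.01 for all genes, with 3 above 0 and 4 below, and it was -0.05 without vector 1, against 0.02 for all genes. None of these values is a test of the partners as a group.

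**Figure D3:**
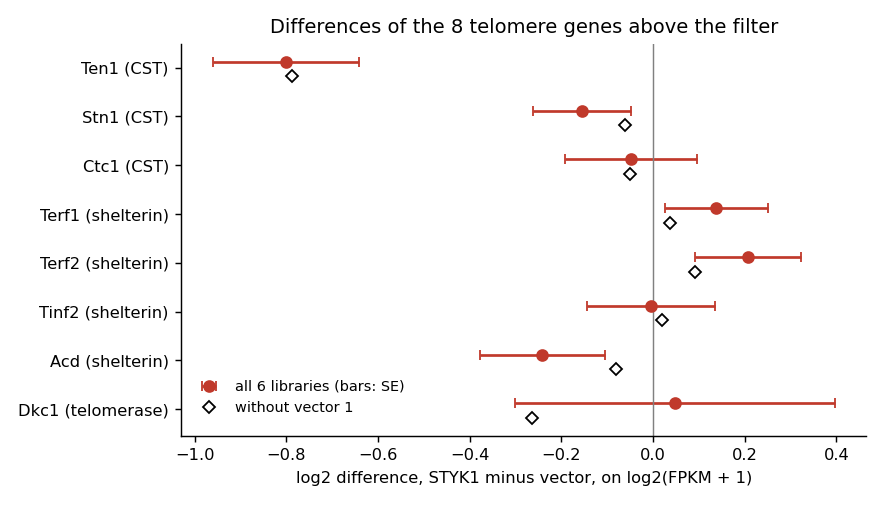
Log2 difference, STYK1 minus vector, on log2(FPKM + 1), for the 8 genes above the filter, with all 6 libraries (points, bars show the SE) and without vector 1 (diamonds). Ten1 stays near -0.80 in both, while Stn1, Acd, Terf1 and Terf2 lie closer to 0 without vector 1. Ctc1 is at -0.05 in both, Tinf2 changes sign, and Dkc1 moves from 0.05 to -0.26.

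Vector 1 lay outside the range of the other 5 libraries for 6 of the 9 genes, above it for Stn1, Acd and Tert and below it for Terf1, Terf2 and Dkc1. The same count was not made over all genes, so it cannot be read as a trait of these genes. For Ten1, Ctc1 and Tinf2 it lay within that range. Of the 8 tested genes, 4 had a difference smaller by over 1.5 times without vector 1, 2 had the other sign and 2 stayed within 1.5 times. Among all genes, 42.8% were smaller by over 1.5 times, and 2187 of 11464 had the other sign.

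A gene that overlaps Ten1 may bear on its value, because the sources used here do not say how the authors' counting treated overlapping genes. In the RefSeq annotation of the hamster assembly BCM_Maur_2.0, Cdk3, a cyclin-dependent kinase gene, comes after Ten1 in gene order and overlaps it. The strands of the genes were not compared. Cdk3 was at 0.38, 0.29 and 0.25 FPKM in the STYK1 libraries, against 0.47, 0.38 and 0.52 FPKM in the vector libraries. The groups touched at 0.38 FPKM, and Cdk3 lay below the filter. Reads from the overlap may have been split between Ten1 and Cdk3, and their part in the value of Ten1 was not tested.

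The 5 named genes with the pattern most like that of Ten1 over the 6 libraries were found by the root-mean-square distance between their log2(FPKM + 1) values, each gene taken relative to its vector mean. The nearest was Trappc6a, a subunit of a vesicle tethering complex, at a distance of 0.14. It measured 17.9 ± 2.34 FPKM in STYK1 and 29.5 ± 4.06 FPKM in vector libraries (SD, n = 3 each). Tsacc followed at 0.21, with 2.41 ± 1.01 FPKM in STYK1 and 4.50 ± 0.813 FPKM in vector libraries, and Otulinl at 0.22, with 2.59 ± 0.477 FPKM in STYK1 and 4.49 ± 0.484 FPKM in vector libraries. Tomm7, of the mitochondrial import channel, lay at 0.22 and Med11, of the Mediator complex, at 0.23. None of the 5 is a telomere gene. The measure finds genes that are low in STYK1 libraries by its construction.

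Other genes of telomere maintenance were counted in lists written from general knowledge with earlier results of these data known. With the genes already described they came to 69, of which 65 were found and 62 tested. Leaving aside Ten1, 0 of the other 61 passed the adjusted threshold. Of these 61, 41 were above 0 and 20 below, against 6045 above and 5419 below of all 11464 genes. Their median log2 difference was 0.08, against 0.01 over all genes. An unadjusted p under 0.05 was found for 7 of these 61 with a higher level, against 4.95% of all genes, and for 1 with a lower level, Ruvbl2, against 4.88% of all genes. Without vector 1 the median of the 61 was 0.04, against 0.02 over all genes. Then 40 were above 0 and 21 below, against 6383 and 5080 of all genes. With equal FPKM sums it was 0.19, against 0.12 over all genes. Of the 62, 33 differences (53.2%) were smaller by over 1.5 times without vector 1, against 42.8% of all genes. The other sign was found for 13, against 2187 of all 11464 genes. A further 4 were larger by over 1.5 times and 12 stayed within 1.5 times, against 1340 and 3033 of all genes.

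The enzyme that CST brings to the telomere, DNA polymerase alpha with primase, had 4 of 4 genes tested and 0 called. The catalytic subunit Pola1 was at 5.29, 5.18 and 5.18 FPKM in the STYK1 libraries, against 2.45, 4.28 and 4.12 FPKM in the vector libraries. The STYK1 values lay above all vector values, with vector 1 far lowest. The log2 difference was 0.46 ± 0.18 (SE, limma-trend, adjusted p = 0.469), and 0.26 without vector 1. The primase genes Prim1 and Prim2 had differences of 0.17 and 0.24, and of 0.04 and 0.03 without vector 1. Pola2, the accessory subunit, was the only 1 of the 4 below 0, at -0.13.

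Of 16 genes for telomerase and its assembly, 14 were found, 13 tested and 0 called, with 7 above 0, 6 below and a median of 0.03, or -0.01 without vector 1. Ruvbl2, an ATPase that helps assemble telomerase and many other complexes, was at 44.1, 46.2 and 43.1 FPKM in the STYK1 libraries, against 65.6, 48.5 and 51.3 FPKM in the vector libraries. Its groups did not overlap, vector 1 was highest, and the log2 difference was -0.29 ± 0.12 (SE, limma-trend, adjusted p = 0.469) and -0.16 without vector 1. Tgs1, which hypermethylates the caps of small RNAs including telomerase RNA, and Tent4b, a poly(A) polymerase that acts on telomerase RNA, had differences of 0.31 and 0.32, both with an adjusted p of 0.469 in limma-trend. Both had overlapping groups, and without vector 1 the differences were 0.21 for Tgs1 and 0.18 for Tent4b.

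All 25 genes of telomere replication and end processing were tested and 0 were called, with 18 above 0, 7 below and a median of 0.07, or 0.04 without vector 1. Rad50, a subunit of the MRE11 complex that senses broken ends, was at 11.5, 11.2 and 10.6 FPKM in the STYK1 libraries, against 7.54, 9.28 and 8.92 FPKM in the vector libraries. These groups did not overlap, and the log2 difference was 0.34 ± 0.12 (SE, limma-trend, adjusted p = 0.469) and 0.26 without vector 1. Rif1, which steers repair and replication timing and in yeast limits telomere length, had a difference of 0.31, and of 0.18 without vector 1. Dclre1b, which encodes the nuclease Apollo that trims leading-strand telomere ends, was listed at 0, 0 and 11.7 FPKM in STYK1 1, 2 and 3, against 9.82, 8.60 and 5.70 FPKM in vector 1, 2 and 3. STYK1 3 was the highest of all 6 libraries, so the STYK1 libraries did not agree among themselves. FPKM alone does not tell whether the 2 listed zeros are absent transcripts or failed estimates. The log2 difference of -1.93, which is counted in this list, is therefore not read as a fold.

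Of 15 genes for telomeric chromatin and repeat-binding factors, 14 were found, 12 tested and 0 called, with 10 above 0, 2 below and a median of 0.27. That median was 0.12 without vector 1, against 0.02 for all genes. An unadjusted p under 0.05 was found for 4 of the 12, all with higher levels, against 4.95% of all genes. In 4 of the 12 all STYK1 libraries lay above all vector libraries, and in 0 below, against 13.6% and 9.44% of all genes. These counts were 5 above and 1 below of 25 for replication and end processing, and 0 above and 1 below of 13 for telomerase. Over the 61 listed genes other than Ten1 they were 11 above and 3 below. Atrx, the chromatin remodeller that deposits histone H3.3 at telomeres together with DAXX, was at 47.3, 41.2 and 40.7 FPKM in the STYK1 libraries, against 24.1, 35.7 and 35.0 FPKM in the vector libraries. Its groups did not overlap and vector 1 was lowest, with a log2 difference of 0.45 ± 0.15 (SE, limma-trend, adjusted p = 0.469) and of 0.27 without vector 1. Its partner Daxx had a difference of -0.17, with overlapping groups, and of -0.043 without vector 1. Cbx1, a heterochromatin protein 1 gene, and Zbtb10, a zinc finger gene, had differences of 0.29 and 0.28, each with an adjusted p of 0.469 in limma-trend, and of 0.17 and 0.22 without vector 1.

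**Figure D4:**
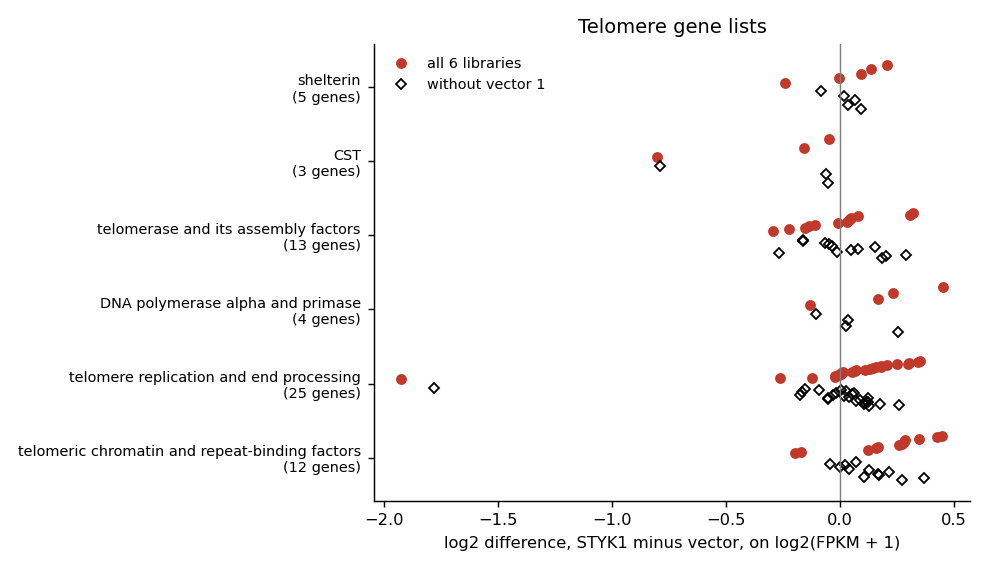
Log2 difference, STYK1 minus vector, of each tested telomere gene by list, with all 6 libraries (red points) and without vector 1 (open diamonds). Ten1 lies at -0.80 and the other CST genes at -0.16 and -0.05. The point at -1.93 is Dclre1b, which was listed at 0 in 2 STYK1 libraries. Without vector 1, 33 of the 62 differences (53.2%) are smaller by over 1.5 times, against 42.8% of all genes.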

How the data were processed

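Per the labels' protocols, Illumina TruSeq libraries were built from 1 ug of Trizol RNA each. Each library has 1 file of FPKM values computed by the authors, per the file headers. Bowtie 0.12.2 and the mouse builds mm8 and mm9 appear in the submitters' processing notes with no stated role. The sources used here do not give the FPKM tool, the annotation, the use of strand or the read depth, so no counting interval is printed.

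Gene IDs were matched to symbols in the RefSeq table of BCM_Maur_2.0 (15049 of 16078), which was used for names and gene order only. Genes that reached a mean of 1 FPKM in STYK1 or vector libraries were tested on log2(FPKM + 1) by limma-trend with robust moderation (limma 3.58.1, R 4.3.3), with Benjamini-Hochberg adjustment over all tested genes and a threshold of 0.05. The script was tested on simulated data.

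The members, lists and naming rule were chosen with earlier results of these data known. The rule named the 10 genes, up to 3 genes of smallest p per list, the 5 genes nearest to Ten1 in pattern and genes beside Ten1; a result under this rule is not reported here. Pot1, Pola2 and Daxx, which complete complexes, were added after their values were seen. Libraries carried the same numbers in both groups but no stated pairing. Alternatives were other pseudocounts, filters, scalings, quality weights, a replicate block and leaving out each library.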

Additional observations from a re-analysis of the deposited data

How the results depend on the processing

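The log2 difference of Ten1 stayed between -0.97 and -0.70 in all 15 alternatives, within the spread between replicates. Those of Stn1 and Acd stayed below 0 (-0.22 to -0.05 and -0.35 to -0.08) and those of Terf1 and Terf2 above it (0.04 to 0.24 and 0.09 to 0.32), with no adjusted p under 0.05. The sign changed for Ctc1 with equal FPKM sums (0.039) and with quality weights (0.053), for Tinf2 with equal sums (0.088) and for Dkc1 after quantile normalization (-0.018); the cause was not tested. When each library was left out in turn, Ctc1 ranged from -0.14 to 0.046, Tinf2 from -0.10 to 0.069 and Dkc1 from -0.26 to 0.35. With equal sums the median over all genes was 0.12, against 0.01.

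Genes past the threshold numbered 24 with quality weights, against 0, and 0 to 2 when a library was left out (2 without STYK1 1, STYK1 3 or vector 3). At an unadjusted p under 0.05, quality weights gave 1202 higher and 1163 lower genes, equal sums 1263 and 218, and leaving out 1 library 163 to 905 higher and 189 to 804 lower. With the replicate number as a replicate block, 450 were higher and 381 lower, with 0 past the threshold. Same-numbered libraries deviated from their group means with correlations of -0.27, -0.16 and 0.11, and differently numbered ones with correlations from -0.28 to 0.28. With 3 libraries per group these correlations cannot decide whether the numbers pair libraries. The planned correction for protein length was not run, since no protein table was used here. Unknown read depth and unknown transcript models limit what can be said of Dkc1 and Tert.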
